A study of Mus musculus with 6 samples.

Results

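A set of 33 genes of glycolysis and lactate metabolism was followed through a knockdown of the transcription factors MEF2A and MEF2D in MA-10 cells, a line grown from a mouse Leydig cell tumour. They were chosen by name to cover glucose uptake, each glycolytic step, lactate making and export, and the entry of pyruvate into mitochondria. All 33 were found by gene symbol (Pkm under its older symbol Pkm2) among the 22083 genes that could be named on the arrays. A gene read by several probe sets is given by its brightest one, averaged over all 6 arrays. The siRNA MEF2 group (3 samples) received small interfering RNA against MEF2A and MEF2D, and the siRNA control group (3 samples) a scrambled one, 48 h before RNA was taken. All samples came from this single tumour line, grown in medium with horse serum, and no group had only 1 of the 2 factors targeted. Each sample was read on a 1-colour array, and every value below is a log2 signal or a difference of log2 signals, siRNA MEF2 minus siRNA control. The labels do not say whether the samples of a group came from separate cultures. A p-value here thus sets a difference against the scatter among these samples only, and that scatter may be technical. The limma fits also draw each gene's scatter toward that of all genes. A gene with wide scatter thereby gets a smaller SE and p than its own values alone would give.

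Glycolysis splits glucose into pyruvate in the cytosol and yields ATP and NADH. Lactate dehydrogenase turns pyruvate into lactate and regenerates NAD, monocarboxylate transporters carry lactate across the cell membrane, and the pyruvate dehydrogenase complex, held in check by its kinases, passes pyruvate carbon to the mitochondria. Most steps have several isozymes, encoded by separate genes that differ in tissue and in regulation.

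The targeted transcripts were lower in the siRNA MEF2 group. Mef2a read 10.80, 10.80 and 10.78 on control arrays 1 to 3 and 9.80, 10.12 and 10.10 on siRNA MEF2 arrays 1 to 3, a difference of -0.78 (SE 0.08, limma adjusted p = 8.39e-05). Mef2d differed by -0.46 (SE 0.08, limma adjusted p = 0.00204). The median of the negative control probe sets lay between 7.16 and 7.53 on the 6 arrays and serves as a reference for dim genes. Of 8 Leydig cell markers 7 were measured and 6 lay above the negative controls, while 3 of 6 Sertoli cell, 1 of 4 germ cell, 1 of 4 macrophage, 1 of 3 endothelial and 1 of 3 peritubular myoid cell markers did. Several of these markers differed between the groups too. Among the Leydig cell markers Star (-0.91), Scarb1 (-0.52) and Hsd3b1 (-0.46) fell, and Lhcgr (0.45), Cyp17a1 (0.42) and Nr5a1 (0.20) rose. Hsd3b1 lay below the negative control median on 2 arrays. Of the other cell types' markers above the negative controls, Cd68 (-0.54) and Cdh5 (-0.42) fell and Ddx4 (0.39) rose. The part of these marker differences in the results below was not tested.

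Every called gene among the 33 was lower after siRNA MEF2. Of the 33 genes 13 fell (limma adjusted p under 0.05) and 0 rose, while 20 did not pass. At an unadjusted p under 0.05 limma gave 1 gene as higher, Pfkfb4. Over all 22083 genes 11.7% were called lower and 9.04% higher. The median difference was -0.25 over the 33 genes and 0.04 over all genes, and 25 of the 33 differences were negative. The siRNA MEF2 values lay wholly below the control values for 13 of the 33 genes, against 18.0% of all genes, and wholly above for 1, Pfkfb4, against 22.8% of all genes. The falls were small, from 0.24 to 0.48 on the log2 scale. The number of genes called depended on scaling and on single arrays. It was 4 after quantile normalization (7.69% of all genes lower) and 6 after cyclic loess (8.7% of all genes lower). Without control replicate 1 it was 4, beside 2118 of the 22083 genes called lower. Without control replicate 2 it was 4, beside 1600. In each of these fits the share of the 33 genes lay closer to that of all genes than in the main fit (39.4% against 11.7%). Slc16a1, Pfkp and Pfkfb3 were called lower under each of the 17 alternatives, and Hk1 under all but quantile normalization (adjusted p = 0.0552). Among the 17 is a fit to the series matrix, a second deposited set of the same values, which could not change a call.

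**Figure D1:**
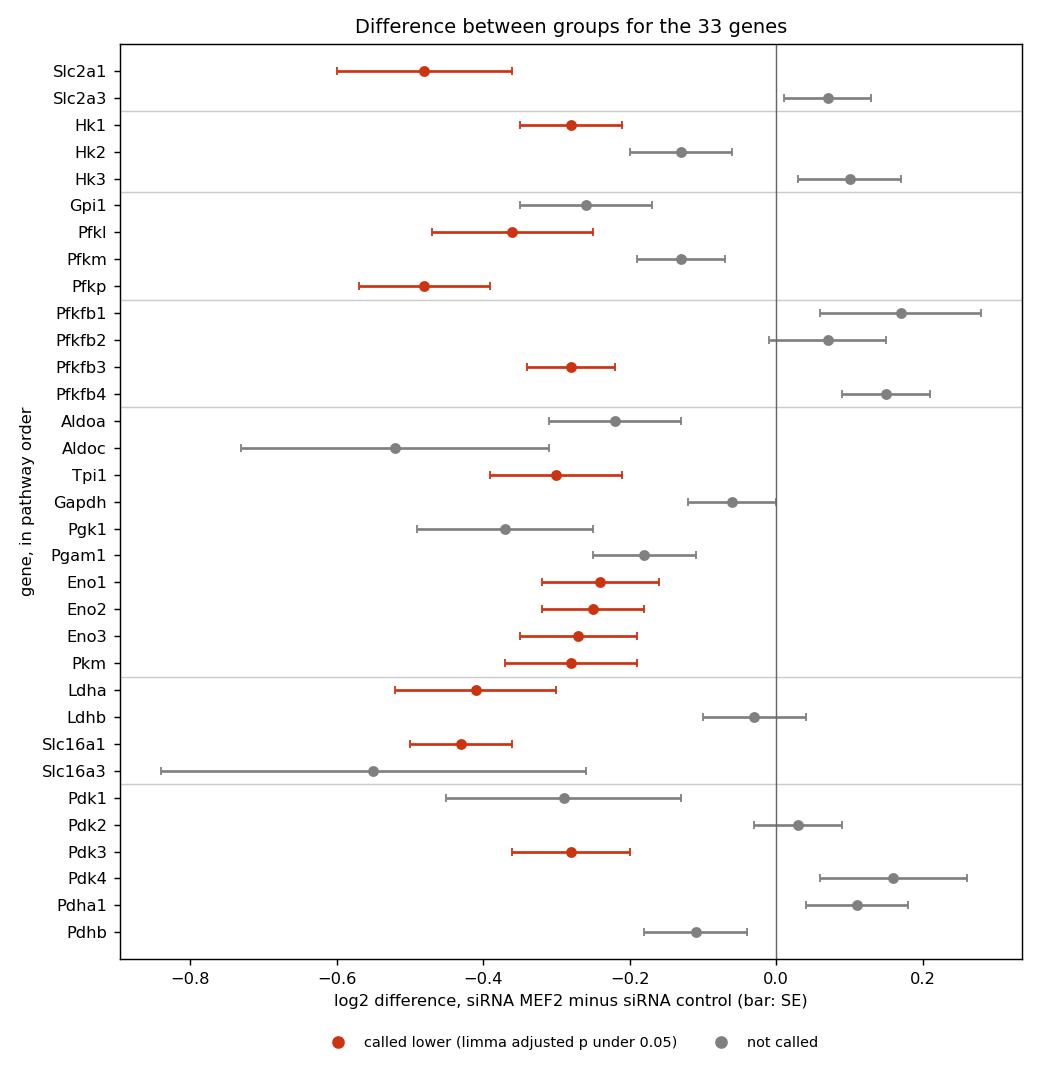
The log2 difference between groups (x axis, siRNA MEF2 minus siRNA control, bars are limma's SE) is drawn for the 33 genes in pathway order, with called genes in red. The 13 called genes lie between -0.48 and -0.24, and Slc16a3 (-0.55) and Aldoc (-0.52) lie further left with wide bars and were not called.

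Promoter sequences were read for 32 of the 33 genes from RefSeq (GRCm38.p6, 250 bases before to 50 after each annotated start, all starts of a gene counted). Of the 32 genes 12 have more than 1 start, while all 27025 genes with an entry have 32851 entries. The 32 genes thus have more windows per gene in which letters can match. The part of this in the shares below was not tested. The core letters of the hypoxia response element, ACGTG or GCGTG on either strand, were in 29 of the 32 genes (90.6%) and in 46.7% of all 27025 genes with an entry. They were in 11 of the 13 called genes (84.6%) and in 18 of the 19 others (94.7%). The GC box, GGGCGG on either strand, was likewise in 68.8% of the genes and in 38.2% of all genes, and the E-box CACGTG, which holds the hypoxia core on each strand, in 18.8% and 8.09%. The MEF2 consensus was in 1 of the 32 genes, Pfkfb1, and in 3.7% of all genes. It was in 0 of the 13 called genes, which says only that these letters are not in this window. A letter match is a description and not a bound site. The promoters below are those of the 3 genes that were called under every alternative, and of Ldha, with the cores in capitals. Ldha holds the most cores when the core in an E-box is counted on each strand, as was done here. Where a gene has more than 1 start, the one with the most cores is shown.
Slc16a1, chr3:104638414-104638713, plus strand: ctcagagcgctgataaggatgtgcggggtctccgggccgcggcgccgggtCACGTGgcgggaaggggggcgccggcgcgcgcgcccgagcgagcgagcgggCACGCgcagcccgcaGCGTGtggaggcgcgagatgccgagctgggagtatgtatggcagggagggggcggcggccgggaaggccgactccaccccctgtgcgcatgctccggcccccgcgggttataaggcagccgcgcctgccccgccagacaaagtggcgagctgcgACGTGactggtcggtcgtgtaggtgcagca
Pfkp, chr13:6648722-6649021, minus strand: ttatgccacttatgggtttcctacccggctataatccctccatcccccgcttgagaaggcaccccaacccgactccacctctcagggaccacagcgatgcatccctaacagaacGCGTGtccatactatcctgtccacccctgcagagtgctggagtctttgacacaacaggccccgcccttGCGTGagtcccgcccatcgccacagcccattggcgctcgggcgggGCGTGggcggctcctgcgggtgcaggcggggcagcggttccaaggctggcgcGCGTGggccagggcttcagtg
Pfkfb3, chr2:11502041-11502340, minus strand: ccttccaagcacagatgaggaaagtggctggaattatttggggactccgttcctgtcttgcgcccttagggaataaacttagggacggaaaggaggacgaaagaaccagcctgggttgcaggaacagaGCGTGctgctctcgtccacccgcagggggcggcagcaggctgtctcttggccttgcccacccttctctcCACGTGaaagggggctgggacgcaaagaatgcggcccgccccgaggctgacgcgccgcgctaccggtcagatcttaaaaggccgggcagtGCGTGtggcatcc
Ldha, chr7:46845554-46845853, plus strand: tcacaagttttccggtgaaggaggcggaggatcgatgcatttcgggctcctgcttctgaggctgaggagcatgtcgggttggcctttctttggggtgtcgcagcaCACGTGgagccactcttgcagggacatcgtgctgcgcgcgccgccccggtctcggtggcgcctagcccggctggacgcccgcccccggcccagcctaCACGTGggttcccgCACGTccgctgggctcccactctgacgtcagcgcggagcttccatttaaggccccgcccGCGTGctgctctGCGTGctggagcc
The call of Slc16a1, Pfkp and Pfkfb3 was kept when any 1 array was left out, while that of Ldha was lost when any 1 of 4 arrays was left out.

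Glucose enters through facilitative transporters. Slc2a1, which encodes GLUT1, the transporter of most growing cells, read 11.33, 11.52 and 10.96 on the control arrays and 10.86, 10.88 and 10.62 on the siRNA MEF2 arrays. The siRNA MEF2 values were all lower, but the gap between the groups, 0.07, was small beside the control range of 0.56. Slc2a1 fell by 0.48 (SE 0.12, limma adjusted p = 0.0149), which is 1.40-fold. Leaving out control replicate 1 moved its adjusted p to 0.0544, and leaving out control replicate 2 moved it to 0.059. Quantile normalization moved it to 0.0549, and robust estimation with a variance trend to 0.0571. Slc2a3, which encodes GLUT3, lay below the negative control median on all 6 arrays and differed by 0.07 (adjusted p = 0.383).

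Hexokinases trap glucose as glucose 6-phosphate. Hk1, the isozyme found in most tissues, read 9.50, 9.68 and 9.57 in the controls and 9.29, 9.38 and 9.23 after siRNA MEF2. The groups did not overlap, and the fall of 0.28 (SE 0.07, 1.22-fold, limma adjusted p = 0.0108) exceeded the control range of 0.18. Hk2, the isozyme induced by insulin in muscle and raised in many tumours, differed by -0.13 (SE 0.07, adjusted p = 0.193), with groups that overlapped. Hk3 lay below the negative control median on all 6 arrays and differed by 0.10 (adjusted p = 0.297).

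Phosphofructokinase commits the sugar to glycolysis, and it has 3 subunit genes. Pfkp, the platelet-type subunit, read 11.99, 12.21 and 11.86 in the controls and 11.38, 11.66 and 11.57 after siRNA MEF2. All siRNA MEF2 values lay at least 0.20 below the lowest control, and Pfkp fell by 0.48 (SE 0.09, limma adjusted p = 0.00412), which is 1.40-fold. Pfkl, the liver-type subunit, read 10.43, 10.72 and 10.21 in the controls and 9.93, 10.22 and 10.15 after siRNA MEF2. It fell by 0.36 (SE 0.11, limma adjusted p = 0.0416), although its groups overlapped by 0.01. The call was lost in 10 of 17 alternatives, among them 5 of the 6 that leave out 1 array, and the difference was -0.22 (adjusted p = 0.147) without control replicate 2. Pfkm, the muscle-type subunit, read 11.12, 11.11 and 11.11 in the controls and 10.94, 10.97 and 11.03 after siRNA MEF2. Its groups did not overlap and its control arrays lay within 0.02 of each other, yet the difference was -0.13 (SE 0.06, adjusted p = 0.0992). The change of Pfkl lay 0.22 below that of Pfkm, but their within-array difference overlapped between the groups. Gpi1, which encodes the phosphoglucose isomerase before this step, differed by -0.26 (SE 0.09, adjusted p = 0.0578), and by -0.36 (adjusted p = 0.0167) without control replicate 3.

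Fructose 2,6-bisphosphate, an activator of phosphofructokinase, is made and broken by 4 bifunctional enzymes, and 1 of their 4 genes was called. Over all genes 11.7% were called lower, and 23% in the tenth of mean signal that holds Pfkfb3. The share of 1 in 4 was near the latter. Pfkfb3, whose enzyme has a high kinase activity and favours glycolysis, read 8.96, 9.08 and 9.05 in the controls and 8.71, 8.71 and 8.81 after siRNA MEF2. The groups lay 0.15 apart, and the gene fell by 0.28 (SE 0.06, limma adjusted p = 0.00694), which is 1.22-fold. Pfkfb4, the testis-type isozyme, read 8.44, 8.53 and 8.47 in the controls and 8.57, 8.58 and 8.74 after siRNA MEF2. Its values after siRNA MEF2 were all higher, by 0.15 on average (SE 0.06), but it did not pass (adjusted p = 0.106). Pfkfb1 differed by 0.17 (adjusted p = 0.251) and Pfkfb2 by 0.07 (adjusted p = 0.531), both with the highest value on siRNA MEF2 replicate 3. Without siRNA MEF2 replicate 1, Pfkfb1 differed by 0.31 and was called higher (adjusted p = 0.027).

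**Figure D2:**
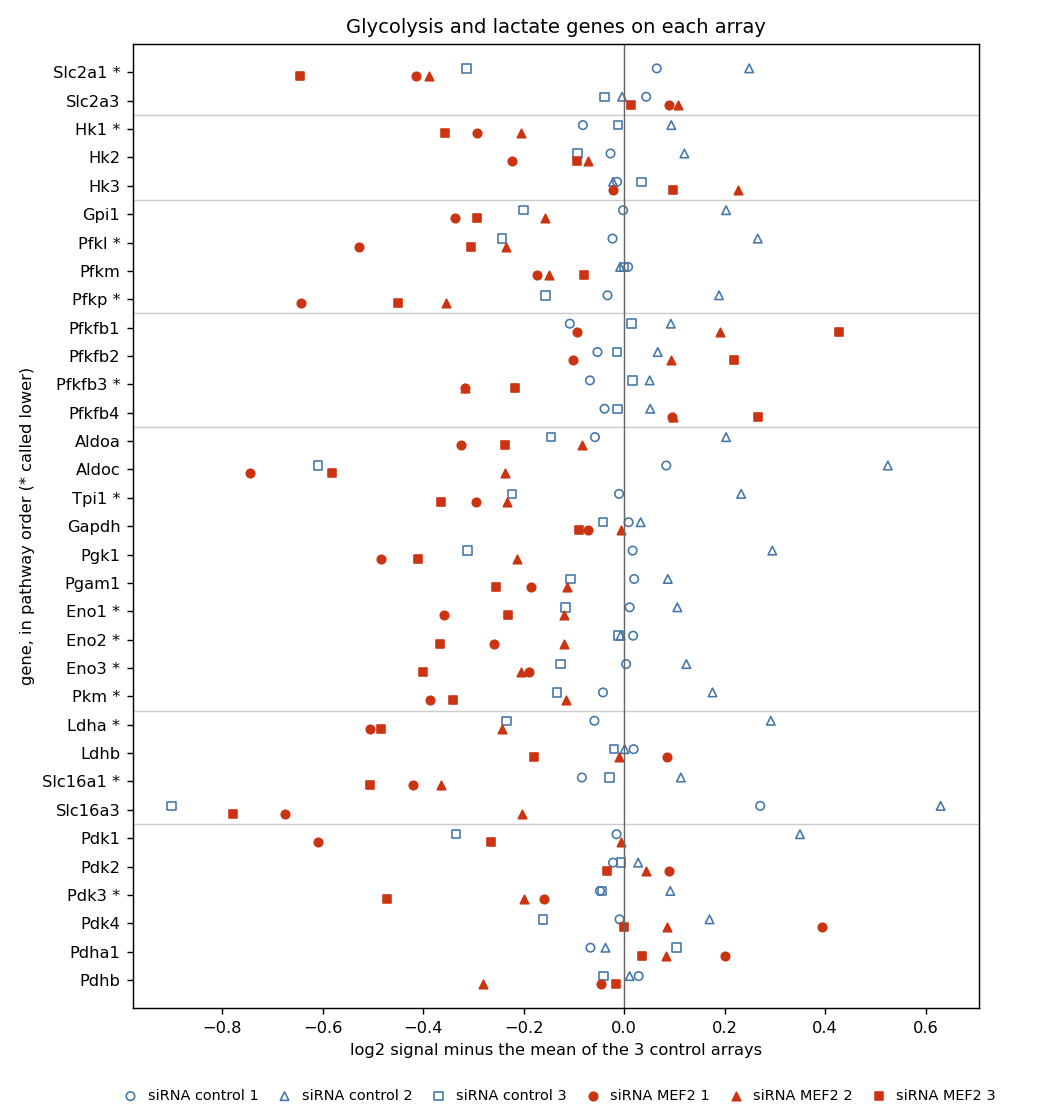
Each point is the log2 signal of a gene on 1 array minus the mean of its 3 control arrays (x axis), with genes in pathway order (y axis) and open blue marks for control arrays, filled red marks for siRNA MEF2 arrays. Control array 2 (triangle) is the highest and control array 3 (square) the lowest control for most genes, and for Slc16a3 control array 3 lies below all 3 siRNA MEF2 arrays.

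From aldolase to pyruvate all 10 genes had a negative difference and 5 of them fell, against 11.7% of all genes and 22.7% of the brightest of 10 groups of genes ranked by signal. Tpi1, triosephosphate isomerase, read 12.52, 12.77 and 12.31 in the controls and 12.24, 12.30 and 12.17 after siRNA MEF2, a fall of 0.30 (SE 0.09, limma adjusted p = 0.0438). Eno1, the enolase of most tissues, read 13.75, 13.84 and 13.62 in the controls and 13.38, 13.62 and 13.51 after siRNA MEF2. It fell by 0.24 (SE 0.08, limma adjusted p = 0.0448), with group ranges that met at 13.62. The calls of Tpi1 and Eno1 were each lost in 9 of 17 alternatives. Without control replicate 2 the difference was -0.18 for Tpi1 (adjusted p = 0.153) and -0.18 for Eno1 (adjusted p = 0.159), and only control replicate 3 for Tpi1, and control replicate 3 and siRNA MEF2 replicate 2 for Eno1, could be left out with the call kept. Eno3, the muscle enolase, read 9.56, 9.68 and 9.43 in the controls and 9.37, 9.35 and 9.16 after siRNA MEF2. It fell by 0.27 (SE 0.08, limma adjusted p = 0.0323), with every siRNA MEF2 array below every control. The Eno3 call was lost in 6 of 17 alternatives, with an adjusted p of 0.147 after quantile normalization, 0.102 after cyclic loess and 0.124 without control replicate 2. Eno2, the neuronal enolase, read 7.63, 7.61 and 7.60 in the controls and 7.36, 7.50 and 7.25 after siRNA MEF2. It fell by 0.25 (SE 0.07, limma adjusted p = 0.0232), to a mean of 7.37 that lay inside the range of the negative control medians, so no fold is given. The Eno2 call was lost in 4 of 16 alternatives, without any 1 of the control replicates or without siRNA MEF2 replicate 3 (adjusted p from 0.0606 to 0.0668). Pkm, the pyruvate kinase of muscle and tumours, whose splice forms were not told apart, read 12.13, 12.35 and 12.04 in the controls and 11.79, 12.06 and 11.83 after siRNA MEF2. It fell by 0.28 (SE 0.09, limma adjusted p = 0.0428), with groups that overlapped by 0.02. The Pkm call was lost in 7 of 17 alternatives, 4 of them fits that leave out 1 array, and the difference was -0.19 (adjusted p = 0.159) without control replicate 2.

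The other 5 genes of this stretch did not pass. Pgk1, phosphoglycerate kinase, read 12.37, 12.65 and 12.04 in the controls and 11.87, 12.14 and 11.94 after siRNA MEF2, a difference of -0.37 (SE 0.12) that did not pass (adjusted p = 0.0509). It was -0.53 (adjusted p = 0.00584) without control replicate 3. Pgam1, phosphoglycerate mutase, differed by -0.18 (adjusted p = 0.0648) without overlap. Aldoa, the main aldolase of muscle and growing cells, differed by -0.22 (SE 0.09, adjusted p = 0.103). Aldoc, the brain aldolase, had the larger difference, -0.52, but its control arrays read 9.94, 10.38 and 9.25, a range of 1.13 (SE 0.21, adjusted p = 0.1). Without control replicate 3 it was -0.83 (adjusted p = 0.00375). Gapdh, often used as a reference gene, differed by -0.06 (SE 0.06, adjusted p = 0.485). It had 36 probe sets with 29 distinct sets of values, whose differences ran from -0.09 to -0.03. Gapdh, Eno1, Pgk1 and Pgam1 have near-identical pseudogene copies, and Eno1, Pgk1 and Pgam1 had 3 probe sets each, so single probe sets of these 4 genes can read other loci. The differences over the 3 probe sets were -0.24 to -0.18 for Eno1, -0.37 to -0.36 for Pgk1 and -0.22 to -0.18 for Pgam1.

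Lactate genes included the call with the smallest p of the 33 genes. Slc16a1, which encodes the monocarboxylate transporter MCT1, read 11.09, 11.29 and 11.14 in the controls and 10.75, 10.81 and 10.67 after siRNA MEF2. Its promoter, printed with the sequences, holds 5 hypoxia cores when the core in its E-box is counted on each strand. Every siRNA MEF2 array lay at least 0.28 below the lowest control, and the fall of 0.43 (SE 0.07), or 1.35-fold, was larger than the control range of 0.20 (limma adjusted p = 0.00116). Over the alternatives its adjusted p ran from 0.000101 to 0.00645. Slc16a3, which encodes MCT4, the exporter of glycolytic cells, had the widest control range of the 33 genes. It read 10.06, 10.42 and 8.89 in the controls and 9.12, 9.59 and 9.01 after siRNA MEF2, so that control replicate 3 lay below all 3 siRNA MEF2 arrays. The difference of -0.55 (SE 0.29) did not pass (adjusted p = 0.184), and single control arrays moved it either way. It was -0.42 (adjusted p = 0.408) without control replicate 1, -0.24 (adjusted p = 0.561) without control replicate 2, and -1.0 (adjusted p = 0.00152) without control replicate 3. Ldha, whose subunit favours lactate formation, read 12.99, 13.35 and 12.82 in the controls and 12.55, 12.81 and 12.57 after siRNA MEF2. It fell by 0.41 (SE 0.11, limma adjusted p = 0.0258), which is 1.33-fold, with a control range of 0.53 and groups 0.01 apart. Any 1 of 4 arrays ended its call when left out, with an adjusted p of 0.0517 for control replicate 1 and 0.0814 for control replicate 2. For siRNA MEF2 replicates 1 and 3 it was 0.0693 and 0.0664. The difference was -0.26 without control replicate 2, and in all the call was lost in 8 of 17 alternatives. Ldhb, the subunit of heart and other oxidative tissues, lay below the negative control median on all 6 arrays and differed by -0.03 (adjusted p = 0.74). Ldhb had 2 probe sets, and the dimmer one differed by 0.13.

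At the mitochondrial gate 1 of 6 genes fell, a share near the background of 11.7% of all genes. Pdk3, a pyruvate dehydrogenase kinase, read 10.58, 10.72 and 10.59 in the controls and 10.47, 10.43 and 10.16 after siRNA MEF2. It fell by 0.28 (SE 0.08, 1.21-fold, limma adjusted p = 0.033), with siRNA MEF2 replicate 3 well below the other arrays of its group. Without that array the difference was -0.18 (adjusted p = 0.079). The Pdk3 call was lost in 8 of 17 alternatives, among them 5 of the 6 that leave out 1 array, both further normalizations (adjusted p of 0.156 after quantile and 0.131 after cyclic loess). Pdk1, a kinase induced by low oxygen, read 10.11, 10.47 and 9.79 in the controls and 9.51, 10.12 and 9.86 after siRNA MEF2, with wide overlap (difference -0.29, SE 0.16, adjusted p = 0.201). Pdk4, the kinase induced by fasting, differed by 0.16 (adjusted p = 0.273) and Pdk2, below the negative control median on 5 arrays, by 0.03 (adjusted p = 0.702). Pdha1 and Pdhb, the subunits of the enzyme that the kinases act on, differed by 0.11 (adjusted p = 0.266) and -0.11 (adjusted p = 0.269).

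The control arrays differed among themselves for these genes more than for most. Control replicate 2 gave the highest control value for 26 of the 33 genes, against 43.7% of all genes, and control replicate 3 the lowest for 22, against 31.4% of all genes. The range over the 3 control arrays had a median of 0.20 for the 33 genes and 0.12 for all genes. It exceeded 0.5 for 7 of the 33 genes, Slc16a3, Aldoc, Pdk1, Pgk1, Slc2a1, Ldha and Pfkl, and for 0.457% of all genes. In the siRNA MEF2 group replicate 2 was the highest for 21 of the 33 genes, against 27.4% of all genes. The median deviation of the 33 genes from their control mean was -0.01, 0.11 and -0.09 on control arrays 1 to 3 and -0.26, -0.12 and -0.25 on siRNA MEF2 arrays 1 to 3. Over all genes these medians lay between -0.01 and 0.04. The fall was larger than the control range for 8 of the 13 called genes: Hk1, Pfkp, Pfkfb3, Eno1, Eno2, Eno3, Slc16a1 and Pdk3. In the main fit wide scatter is drawn toward that of all genes. With a variance trend and robust estimation 4 of the 13 calls were lost, those of Slc2a1, Pfkl, Tpi1 and Ldha, while Pgam1 was gained.

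**Figure D3:**
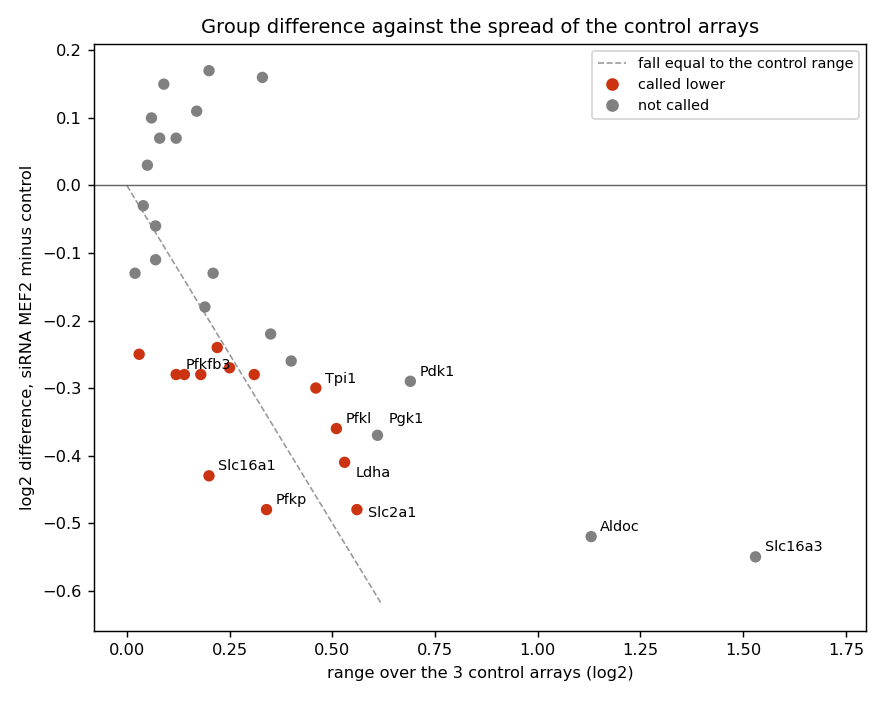
The log2 difference between groups (y axis) is plotted against the range over the 3 control arrays (x axis, log2) for the 33 genes, with called genes in red and a dashed line where the fall equals the control range. Slc16a1 and Pfkp lie below the line, while Slc16a3 (range 1.53) and Aldoc (range 1.13) lie far to its right.

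Isozymes of the same step were compared within each array, which removes any shift shared by 2 genes. In 13 pairs the difference between 2 genes' changes was tested with an exact two-sided permutation test, whose smallest possible p with 3 arrays against 3 is 0.1, so no pair could pass. The change of Pfkfb3 lay 0.44 below that of Pfkfb4, and their within-array difference was tight in both groups (SD 0.03 and 0.04, n = 3 each) without overlap (exact p = 0.1, 0.26 after Benjamini-Hochberg adjustment over the pairs). Hk1 stood 0.15 below Hk2 in its change, and Pfkl 0.13 above Pfkp, without overlap but with groups closer together (exact p = 0.1 each). Measured from the control mean, the lowest control value for Hk1 and Hk2 was -0.06 and the highest siRNA MEF2 value -0.07. The changes of Slc2a1 against Slc2a3 (-0.55) and of Ldha against Ldhb (-0.38) did not overlap either, but the second gene of each pair was at the level of the negative controls. Eno1 and Eno2 (0.01), Pdk1 and Pdk3 (-0.02) and Slc16a1 and Slc16a3 (0.12) differed by less than the spread between arrays, with exact p from 0.7 to 0.9. Eno2 too was at the level of the negative controls, and the Eno1 and Eno2 value was 0.14 after quantile normalization and after cyclic loess, above its SD of 0.11 and 0.12. The remaining 5 pairs overlapped, with exact p from 0.2 to 0.4.

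The genes were also read against genes of like brightness, since lower calls were more frequent among bright genes. All genes were ranked by mean signal and cut into 10 groups of equal size, group 10 being the brightest. In groups 9 and 10 together 23.8% of all genes were called lower and 4.41% higher, and 16 of the 33 genes lay there, of which 9 were called lower. The median difference in these groups was -0.07 over all genes and -0.28 over the 16. Group 10 alone held 13 of the 33 genes, with 7 called lower against 22.7% of all its genes, and group 9 held 3, with 2 called lower against 24.9%. In group 8, 2 of 6 were called lower against 26.1%, in group 7, 1 of 5 (Pfkfb3) against 23.0%, and in group 6, 0 of 1 against 13.0%. Groups 6 to 8 together gave 3 of 12 against 20.7%, a share near the background. Group 5 held Eno2 alone, called lower against 3.62% of all its genes, and group 4 held 4 genes with 0 called lower against 1.58%.

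**Figure D4:**
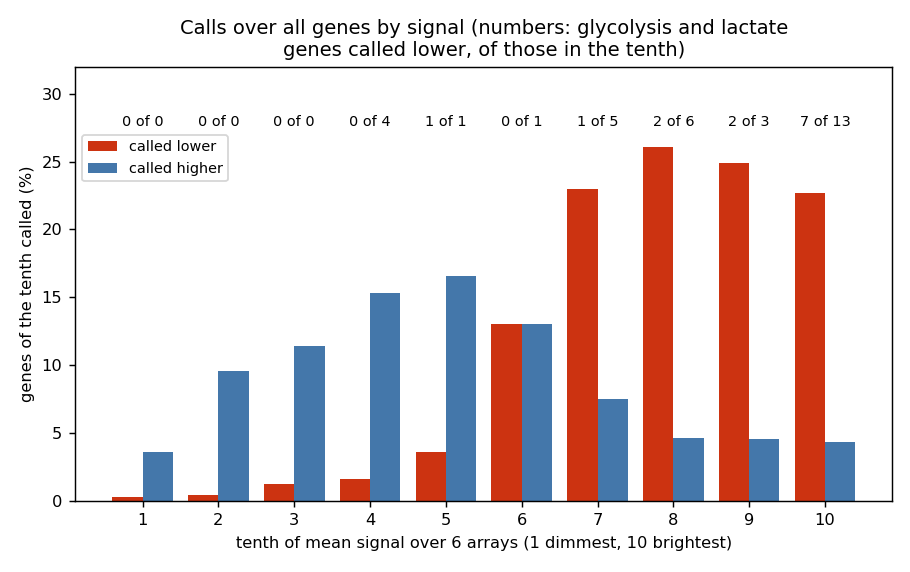
Bars give the percentage of all genes called lower (red) and higher (blue) in each of 10 groups of equal size by mean signal (x axis, 1 dimmest, 10 brightest), and the numbers above them the glycolysis and lactate genes called lower of those in that group. Lower calls make up 0.272% of group 1, 26.1% of group 8 and 22.7% of group 10, where 7 of 13 genes of the pathway were called lower.

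Other genes near the pathway were read from 6 further lists. Their counts stand beside 11.7% lower and 9.04% higher over all genes, and beside 23.8% lower in the brightest groups 9 and 10. Of 31 other glycolysis and lactate genes 8 fell and 3 rose, with a median of 0.00. Of these 31 only 3 lay in signal groups 9 and 10, so 23.8% is not their background. In groups 1 to 5 together 1.43% of all genes were called lower. The 3 that rose encode sugar transporters, Slc2a2 (0.25), Slc2a9 (0.22) and Slc2a6 (0.18). Slc2a2 lay below the negative control median on all 6 arrays. Pgm2, a phosphoglucomutase, fell by 0.66 (SE 0.08, limma adjusted p = 0.000389), more than any of the 33 genes. Minpp1, a phosphatase that also acts on 2,3-bisphosphoglycerate, fell by 0.42 and Galm, which interconverts glucose anomers, by 0.44 (limma adjusted p = 0.000871 and 0.00877). Minpp1 had 2 probe sets, and the dimmer one differed by -0.10. Bpgm, which makes 2,3-bisphosphoglycerate, fell by 0.45 to a mean of 7.51, inside the range of the negative control medians. Of 10 genes for pyruvate entry into mitochondria 4 fell, the pyruvate carrier genes Mpc1 (-0.35) and Mpc2 (-0.24), Dld (-0.30), a shared subunit of dehydrogenase complexes, and the phosphatase gene Pdp1 (-0.22). The median of these 10 genes was -0.02, and 5 of them lay in signal groups 9 and 10. After quantile normalization, and also after cyclic loess, 2 of the 10 were called lower and 1 higher. Of 16 genes of gluconeogenesis and NADH shuttles 2 fell, a share near that of all genes, and 8 of the 16 lay in signal groups 9 and 10. The 2 were Gpd2 (-0.45), the mitochondrial glycerol phosphate dehydrogenase, and Slc25a11 (-0.42), the oxoglutarate carrier. Gpd2 had 2 probe sets, and the dimmer one differed by -0.04. Of 16 genes of the tricarboxylic acid cycle 4 fell and 1 rose, and since 15 of them lay in signal groups 9 and 10, this was near the background of 23.8% lower there. Their differences included -0.28 for Idh3a, -0.22 for Cs, -0.19 for Idh2 and 0.30 for Suclg2. After cyclic loess 1 gene of that cycle was called lower and 2 higher, and after quantile normalization 0 and 2.

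Known regulators of glycolytic genes were read in the same way, and 10 of the 22 lay in signal groups 9 and 10. Of these 22 genes 11 fell and 0 rose in limma (1 was higher at an unadjusted p under 0.05), with a median of -0.19, beside 11.7% of all genes and 23.8% of groups 9 and 10 called lower. After cyclic loess 6 of them were called lower (8.7% of all genes), and after quantile normalization 4 (7.69% of all genes). Hif1a, which encodes the oxygen-regulated subunit of HIF-1, an activator of many genes of this pathway, read 11.75, 11.79 and 11.84 in the controls and 11.47, 11.49 and 11.41 after siRNA MEF2. It fell by 0.33 (SE 0.06, limma adjusted p = 0.00203), with groups far apart and control replicate 2 in the middle, unlike most of the 33 genes. Myc, another activator, fell by 0.33 (limma adjusted p = 0.00321) and its partner Max by 0.25 (limma adjusted p = 0.00948). Prkaa2, a catalytic subunit of the energy sensor AMPK, fell by 0.61 (limma adjusted p = 0.00024). Txnip, an inhibitor of glucose uptake that glucose induces, was chosen after its values were seen. It read 10.79, 11.32 and 10.26 in the controls and at most 10.26 after siRNA MEF2, a fall of 0.64 (SE 0.19, limma adjusted p = 0.0325) with a control range of 1.06.

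Genes induced by low oxygen outside glycolysis formed the last list, and 8 of its 18 genes lay in signal groups 9 and 10. Of 18 such genes 8 fell and 0 rose in limma (0 were higher at an unadjusted p under 0.05), with a median of -0.16, beside 11.7% of all genes and 23.8% of groups 9 and 10 called lower. Control replicate 3 was the lowest control for 15 of the 18, against 31.4% of all genes, and control replicate 2 the highest for 12, against 43.7% of all genes. The remaining genes of the list had other orders. The median control range was 0.35. Bhlhe40, a transcriptional repressor, fell by 0.75 and P4ha1, a collagen prolyl hydroxylase, by 0.43, both without overlap (limma adjusted p = 7.19e-05 and 0.00107). Ero1a, an oxidase of protein folding, fell by 0.48 and Mxi1, an antagonist of MYC, by 0.40 (limma adjusted p = 0.00889 and 0.00477). Mxi1 had 2 probe sets, and the dimmer one differed the other way, by 0.16. Vegfa and Bnip3, chosen after their values were seen, are an angiogenic factor and a mitophagy receptor. Vegfa read 11.67, 11.84 and 11.24 in the controls and 11.28, 11.64 and 11.53 after siRNA MEF2, a difference of -0.09 (adjusted p = 0.619). Bnip3 read 11.44, 11.74 and 10.97 in the controls and 10.64, 10.99 and 10.71 after siRNA MEF2, a fall of 0.61 (limma adjusted p = 0.0162) with overlap between the groups. The part of these regulators, and of the spread among the control arrays, in the result for the 33 genes was not tested. In RNA from whole cultures a change in how much RNA each cell holds and a change in the share of cells in a given state cannot be told apart.

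**Figure D5:**
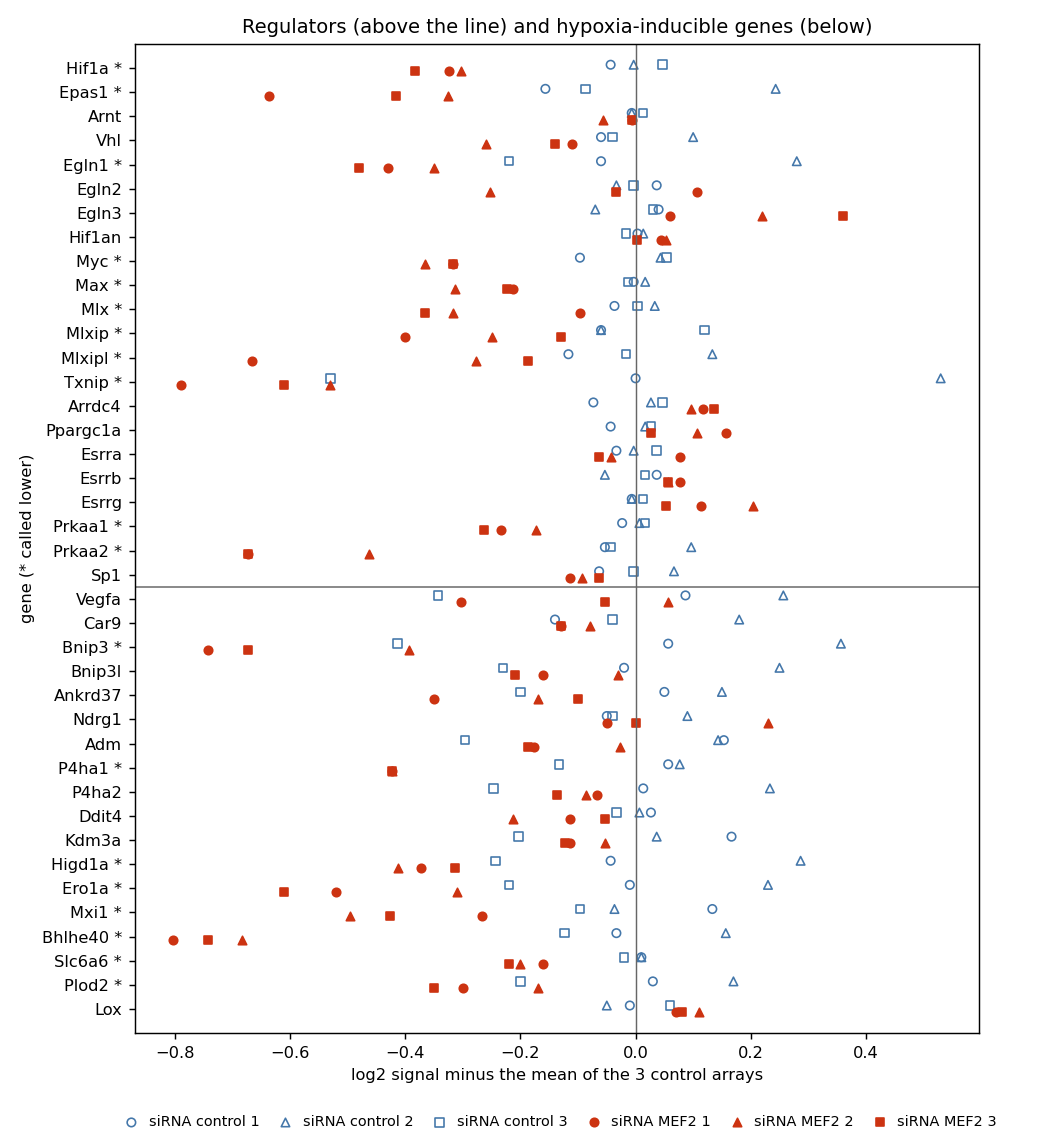
Each point is the log2 signal on 1 array minus the mean of the 3 control arrays (x axis) for 22 regulators (above the line) and 18 hypoxia-inducible genes (below), with open blue marks for control arrays and filled red marks for siRNA MEF2 arrays. Hif1a, Prkaa2 and Bhlhe40 show separate groups, while for Vegfa and Bnip3 control array 3 (square) lies among the siRNA MEF2 arrays or close to them.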

How the data were processed

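RNA of 6 samples, 3 in each group, was hybridised to 1 array a sample, and the sample titles gave group and replicate number. The files hold log2 signals as deposited by the authors, with a header naming a gene-level RMA signal. RMA and Partek appear, with no version, in the submitters' processing notes. A second deposited table, the series matrix, had identical values. Through deposited symbols, transcript accessions and a RefSeq gene table (GRCm38.p6), 25509 of 35557 probe sets were named, covering 22083 genes. The siRNA MEF2 minus siRNA control difference of every gene was fitted with limma 3.58.1 (lmFit, eBayes; R 4.3.3), with no covariate and no filter on low signal. The p-values are two-sided and adjusted by Benjamini-Hochberg over the 22083 genes, with 0.05 as the threshold for a call. The scripts were tested on simulated data. With 3 arrays a group, the number of arrays limits the precision. RMA scales arrays to each other, so these values cannot show a change common to nearly all genes. Alternatives were a replicate block, a variance trend with robust estimation, array weights, median centring, quantile normalization, cyclic loess, a filter at the median signal, means over probe sets, the series matrix and leaving out each array. The members, lists and tests were chosen with earlier results of these data known. All 33 genes are named, and of each further list up to 4 called genes with the smallest p. The 3 other glycolysis and lactate genes that rose are named as well.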

Additional observations from a re-analysis of the deposited data

How the results depend on the processing

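The count of 13 genes called lower became 20 with the replicate block, 21 with the block and median centring together, 8 with array weights, 4 after quantile normalization and 6 after cyclic loess, and lay between 4 and 15 when each array was left out in turn. All 13 were among the 20, and all 4 and all 6 were among the 13. The count of 0 genes called higher held under every alternative except 1, with 0 to 1 genes (Pfkfb1) when an array was left out; at an unadjusted p under 0.05 it was 1 gene. The replicate numbers share only a number: deviations from the group means correlated at 0.11, 0.08 and 0.10 for same-numbered arrays, and each array correlated best with its own number, a hint from the data and not from the design. The blocks with median centring and with cyclic loess (12 genes) were added after the data were seen. The median difference of the 33 genes stayed between -0.30 and -0.16 under all of its alternatives. Over all genes, lower calls (2579) became 2833 with the replicate block, 3065 with array weights and 3570 after median centring. They became 1698 after quantile normalization and 1922 after cyclic loess. With array weights lower calls over all genes rose while the count among the 33 genes fell. Higher calls (1997) became 2475 with the replicate block and 2896 with array weights. They became 843 after median centring, 1171 after cyclic loess and 960 above the median signal, where fewer genes were tested. Leaving out 1 array gave 1600 to 2612 lower and 821 to 2073 higher calls. Of the uncalled genes 5 changed sign. Slc2a3 went to -0.03 and Hk3 to -0.00071 after quantile normalization, and to -0.03 and -0.0034 after cyclic loess, with or without the block. Pdk2 went to -0.02 after median centring and -0.07 after quantile normalization or cyclic loess, with or without the block. Ldhb went to 0.05 with the mean over probe sets. When each array was left out in turn, Ldhb ran from -0.09 to 0.04 and Pfkfb2 from -0.0043 to 0.16. The isozyme pairs Eno1 and Eno2, Slc16a1 and Slc16a3, and Pdk1 and Pdk3 changed sign when some arrays were left out. Where a call moved with the scaling the cause was not tested. Arrays give no read depth, and the 5 genes with an array below the negative control median carry the least information.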
